A study of Mus musculus with 12 samples.

Results

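The genes described here encode channels and adhesion proteins of the intercalated disc, the junction at which heart muscle cells meet end to end. They are the gap junction genes Gja1, Gja4, Gja5 and Gjc1, the adherens junction cadherin Cdh2, the desmosomal genes Dsp, Pkp2, Jup and Dsg2, and the scaffold gene Tjp1. They form a named list of 10 of the 49315 genes counted, and each was found by its gene symbol in all 12 libraries. All 10 passed the filter on low counts, so no member was left out of a test.

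The study measured gene expression by RNA sequencing in hearts of female wild-type C57BL/6J mice, 3 libraries in each of 4 groups. The first group had eaten a Western diet with 45% of its energy from fat and 17% from sucrose, had been bred after 15 weeks of feeding and was killed on day 1 after delivery. The second was bred in the same way on a control diet with 10% of energy from fat. The third and the fourth group ate the Western diet and the control diet for the same time without breeding, and all mice were 27 to 29 weeks old at the end. The labels do not say whether each library came from its own animal, so p-values measure the spread between libraries. Library totals ran from 22754591 to 29492416 counts.

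In the disc, connexins form channels that pass current and small molecules from cell to cell, N-cadherin ties the actin of neighbouring cells together, and desmosomes tie their desmin filaments. In mammalian ventricles the adhesion proteins mix in an area composita, and the scaffold ZO-1 borders the gap junction plaques. Loss of desmosomal proteins, and less or misplaced connexin Cx43, are known from arrhythmogenic heart disease. The data are RNA levels, so they hold no measure of protein, of phosphorylation or of position in the cell.

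Gja1, the gene of the main ventricular connexin Cx43, fell by 26.6% on the Western diet over both pregnancy states, and Cdh2, the N-cadherin gene, fell by 11.9%. This Cdh2 call was near the threshold and was lost in 10 of the 12 fits that left a library out. Both genes also passed between Western diet postpartum and control diet nonpregnant hearts, where Cdh2 fell by 21.1% and Gja1 by 29.9%. With a library left out, that call held in 11 of 12 fits for Cdh2 and in 6 for Gja1. The other 8 genes did not pass the test in any comparison. No gene of the list passed a test of the postpartum state, on either diet or averaged over the diets. Desmosomal and scaffold genes differed in sign among themselves, and the 3 minor connexin genes showed no difference past the test.

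The promoter of Gja1 is shown because its diet average was the largest of the list and held with each library left out. Beside it stand those of Gja4 and Gja5, connexin genes of the vessel wall and the conduction system whose levels did not pass a test. The 3 promoters are the 250 bases before the gene start in RefSeq's GRCm38.p6 annotation, 5′ to 3′ on the gene's strand. They lie at chr10:56377050-56377299 (plus), chr4:127314040-127314289 (minus) and chr3:97032152-97032401 (plus). Capitals mark matches to the motifs searched on both strands.
Gja1: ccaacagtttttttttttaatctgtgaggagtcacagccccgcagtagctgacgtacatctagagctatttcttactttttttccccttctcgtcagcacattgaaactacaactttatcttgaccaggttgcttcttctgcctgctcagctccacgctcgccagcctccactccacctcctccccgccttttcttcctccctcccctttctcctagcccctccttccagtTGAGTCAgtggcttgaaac
Gja4: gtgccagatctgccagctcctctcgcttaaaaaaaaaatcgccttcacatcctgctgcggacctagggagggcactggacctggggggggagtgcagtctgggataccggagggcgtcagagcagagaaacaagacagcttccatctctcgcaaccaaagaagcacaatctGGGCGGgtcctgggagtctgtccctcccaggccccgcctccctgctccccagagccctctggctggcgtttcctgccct
Gja5: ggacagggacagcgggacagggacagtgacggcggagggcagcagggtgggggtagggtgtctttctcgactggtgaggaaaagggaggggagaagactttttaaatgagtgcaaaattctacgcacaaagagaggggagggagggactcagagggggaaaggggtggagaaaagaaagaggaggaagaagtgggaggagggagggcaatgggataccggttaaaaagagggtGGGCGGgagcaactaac
The Gja1 window holds 1 match to the AP-1 motif TGANTCA, which 6.75% of 32851 RefSeq promoters of the same length hold, and no GC box. The Gja4 and Gja5 windows each hold 1 GC box, GGGCGG or its reverse CCGCCC, a motif in 32.7% of promoters. None of the 3 holds TATAAA (in 12.4% of promoters), the T-box motif AGGTGTGA (1.12%) or the E-box CACGTG (6.02%). G and C make up 50.0% of the bases for Gja1, 61.2% for Gja4 and 56.4% for Gja5, against a median of 52.4% over all promoters. These matches describe letters only; binding was not measured. RefSeq sequences were matched and could be shown for 6 of the 10 genes.

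Gja1 (ENSMUSG00000050953, GRCm38 chr10:56377300-56390419, plus strand) held 5681 to 13399 counts per library. In CPM, the count per library scaled to a common size, it stood at 294, 249 and 280 CPM in Western diet postpartum hearts, against 298, 401 and 435 CPM in control diet postpartum hearts. Nonpregnant hearts gave 283, 294 and 294 CPM on the Western diet, against 420, 369 and 385 CPM on the control diet. All 6 Western diet libraries lay below all 6 control libraries, narrowly so: the highest Western value was 294.34 CPM and the lowest control value 297.76 CPM, in control diet postpartum replicate 1. Means were 274 ± 23.1 CPM in Western diet postpartum hearts and 378 ± 71.5 CPM in control diet postpartum hearts, then 290.49 ± 6.54 CPM in Western diet nonpregnant hearts and 391 ± 26.1 CPM in control diet nonpregnant hearts (SD, n = 3 each).

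Averaged over both pregnancy states, the diet difference of Gja1 was −0.45 on the log2 scale (SE 0.079, 95% interval −0.62 to −0.28; edgeR quasi-likelihood F test, Benjamini-Hochberg adjusted p = 0.0135). Across all 15476 genes tested, 1.38% passed this comparison and 0.394% fell; of the 10 disc genes 2 fell, Gja1 and Cdh2. At an unadjusted p under 0.05 there were 3 of 10, with Dsp, against 14.3% of all genes. The median difference was −0.03 for the list and −0.0004 for all genes. Gja1 was the only gene of the list whose 6 Western libraries did not overlap the 6 control libraries, which was so, in the lower direction, for 0.452% of all genes. The call for Gja1 held with each library left out in turn, at −0.52 to −0.39 and adjusted p of 0.00187 to 0.0436.

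Within a single pregnancy state the difference was of like size but did not pass. It was −0.46 in postpartum hearts (SE 0.11, adjusted p = 0.069; edgeR) and −0.43 in nonpregnant hearts (SE 0.11, adjusted p = 0.246; edgeR). Without control diet postpartum replicate 1, the postpartum difference was −0.61 and passed (adjusted p = 0.0177; edgeR). The difference between the 2 diet effects was −0.03, with a 95% interval of −0.37 to 0.31 (adjusted p = 0.965; edgeR), so a change of the diet effect by pregnancy of up to about that interval cannot be told from none. Set against control diet nonpregnant hearts, Western diet postpartum hearts were lower in Gja1 by a log2 difference of −0.51 (SE 0.11, adjusted p = 0.0297; edgeR). That call was lost without any 1 library of either group, at adjusted p of 0.054 to 0.0854.

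Postpartum differences of Gja1 did not pass. The log2 difference was −0.05 on the control diet (adjusted p = 0.891; edgeR) and −0.08 on the Western diet (adjusted p = 0.780; edgeR). On the control diet its sign turned when replicate 1 was left out of the postpartum group (0.10) or of the nonpregnant group (0.011).

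**Figure D1:**
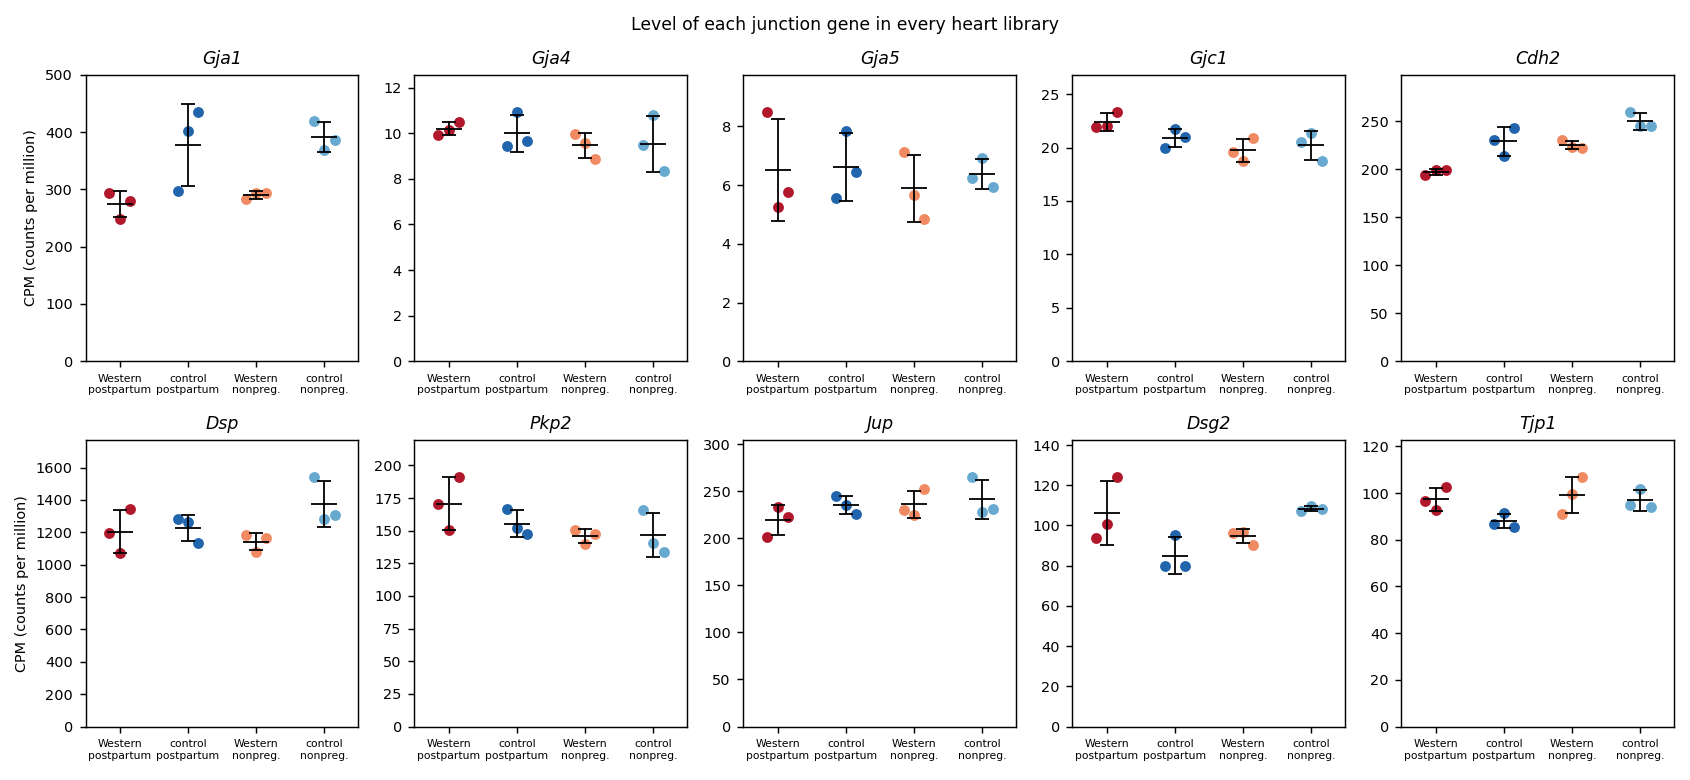
CPM of each of the 10 genes (vertical axes, CPM, each from 0) in every library, by group; dots are libraries and bars are means ± SD (n = 3 each). In the Gja1 panel all 6 Western diet libraries, at most 294.34 CPM, lie below all 6 control diet libraries.

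In RNA from heart tissue, fewer cells of a type and less RNA per cell cannot be told apart. The 8 heart muscle cell markers summed to 65368 to 69064 CPM in Western diet hearts and 65875 to 78710 CPM in control diet hearts, and 0 of the 8 passed the diet test (edgeR; 3 of 8 at an unadjusted p under 0.05). As a percentage of this sum, Gja1 stood at 0.362% to 0.432% in Western diet postpartum hearts and 0.412% to 0.660% in control diet postpartum hearts. These postpartum ranges overlapped between the diets. In nonpregnant hearts the same ratio was 0.431% to 0.434% on the Western diet and 0.468% to 0.608% on the control diet, without overlap. The 6 endothelial markers summed to 840 to 955 CPM in Western diet hearts and 765 to 882 CPM in control diet hearts, and 2 of the 6 rose, Pecam1 by 0.21 and Tie1 by 0.22 on the log2 scale. Mitochondrially encoded genes took 20.4% to 21.5% of counts in Western diet libraries and 19.2% to 20.2% in control libraries, without overlap. Their part in the Gja1 result was not tested.

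The labels say heart without naming a chamber. Of the atrial markers, Myl7 stayed at or below 0.194 CPM, Sln at or below 0.123 CPM and Bmp10 at or below 0.428 CPM in every library, so these were near 0. The 5 atrial markers summed to 30.9 to 62.9 CPM in Western diet hearts and 63.3 to 100.95 CPM in control diet hearts. Nearly all of each sum was Nppa, which averaged 64.6 CPM over all libraries, against 1.63 CPM for Myl4. The natriuretic peptide gene Nppa fell on the Western diet by 0.91 on the log2 scale (adjusted p = 0.00714; edgeR). The fat cell markers summed to 194 CPM in control diet postpartum replicate 3 and to at most 3.53 CPM in the other 11 libraries. With that library and replicate 1 of the control diet nonpregnant group both left out, Gja1 stood at −0.36 for the diet average (adjusted p = 0.035; edgeR). Conduction markers summed to 10.1 to 16.2 CPM in Western diet hearts and 13.1 to 17.9 CPM in control diet hearts. Of the 6, 4 were tested and 0 passed the diet average, 3 had an unadjusted p under 0.05, and their median difference was −0.45 on the log2 scale, beside −0.45 for Gja1. Their part in the Gja1 result was not tested. Fibroblast, macrophage, smooth muscle, arterial, blood and epithelial or mesothelial sums overlapped between the diets over both pregnancy states pooled. Within nonpregnant hearts 3 kinds of sums besides the atrial and endothelial ones did not overlap. Conduction markers summed to 10.8 to 12.99 CPM on the Western diet and 14.6 to 17.2 CPM on the control diet. Fibroblast markers summed to 770 to 816 CPM on the Western diet and 577 to 763 CPM on the control diet. Heart muscle cell markers summed to 65368 to 68287 CPM on the Western diet and 69011 to 78710 CPM on the control diet.

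The list holds 3 other connexin genes. Gja4 encodes connexin Cx37 of arterial endothelium, Gja5 encodes Cx40 of the atria, the conduction system and arterial endothelium, and Gjc1 encodes Cx45 of nodal and conduction cells. Gja4 averaged 10.2 ± 0.284 CPM in Western diet postpartum hearts and 10.0 ± 0.813 CPM in control diet postpartum hearts. In nonpregnant hearts it averaged 9.47 ± 0.554 CPM on the Western diet and 9.54 ± 1.23 CPM on the control diet (SD, n = 3 each). Its diet average was a log2 difference of 0.01 with a 95% interval of −0.15 to 0.16, and its sign turned in 5 of the 12 fits that left a library out.

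Gja5 held only 120 to 208 counts per library and was the most variable gene of the list, with a within-group SD of 0.27 on the log2 scale. It read 8.496, 5.25 and 5.78 CPM in Western diet postpartum hearts and 5.55, 7.83 and 6.46 CPM in control diet postpartum hearts. Nonpregnant hearts read 7.13, 5.68 and 4.86 CPM on the Western diet and 6.25, 6.93 and 5.95 CPM on the control diet. The groups overlapped throughout, and the diet average of −0.07 had a 95% interval of −0.36 to 0.22. Neither the size nor the sign of a diet difference within that interval could be settled. Gja5 shares 165 exonic bases, 2.87% of its length, with Gpr89 on the opposite strand, which held 362 to 556 counts. Dsp shares 4.83% of its length with Gm10129 (15 to 36 counts), also on the opposite strand. Dsg2 likewise shares 3.99% with Gm16090 (2 to 10 counts). The sources used here do not say whether counting used strand.

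Gjc1 averaged 22.4 ± 0.809 CPM in Western diet postpartum hearts and 19.8 ± 1.07 CPM in Western diet nonpregnant hearts (SD, n = 3 each). These groups did not overlap, as was so for 19.6% of all genes, and the log2 difference of 0.18 did not pass (SE 0.072, adjusted p = 0.266; edgeR). On the control diet it averaged 20.9 ± 0.864 CPM postpartum and 20.2 ± 1.35 CPM nonpregnant (SD, n = 3 each). Averaged over both diets the postpartum difference was 0.11 (adjusted p = 0.269; edgeR).

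The make-up of connexin RNA differed by diet in the same libraries. In TPM, a level that is also divided by gene length, Gja1 took 81.5% to 84.1% of the sum over 20 connexin genes in Western diet postpartum hearts and 85.1% to 88.1% in control diet postpartum hearts. In nonpregnant hearts its share was 83.5% to 84.8% on the Western diet and 85.7% to 88.0% on the control diet. The sum itself was 210.6 to 231.7 TPM in Western diet postpartum hearts, 257.8 to 373.7 TPM in control diet postpartum hearts, 237.1 to 250.2 TPM in Western diet nonpregnant hearts and 302.2 to 358.8 TPM in control diet nonpregnant hearts. Shares and sums overlapped in no pair of diets within a pregnancy state, and they follow from the Gja1 values given above.

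Cdh2 (ENSMUSG00000024304, GRCm38 chr18:16588877-16809246, minus strand) encodes N-cadherin, the calcium-dependent adhesion protein whose loss in adult mouse hearts dissolves the disc. Its libraries read 194, 199 and 199 CPM in Western diet postpartum hearts and 231, 213 and 243 CPM in control diet postpartum hearts. Nonpregnant hearts read 230, 223 and 222 CPM on the Western diet and 260, 245 and 244 CPM on the control diet. Western diet postpartum libraries were the lowest 3 of the 12, and within each pregnancy state the diets did not overlap. The gene was the least variable of the list, with a within-group SD of 0.056 on the log2 scale.

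Against control diet nonpregnant hearts, Cdh2 fell by 21.1% in Western diet postpartum hearts, a log2 difference of −0.34 (SE 0.058, adjusted p = 0.0109; edgeR). In that comparison 2.62% of all genes passed and 1.18% fell, against 2 of the 10 disc genes, again Gja1 and Cdh2. At an unadjusted p under 0.05 there were 3 of 10, with Pkp2, against 18.2% of all genes. The Cdh2 call was lost without Western diet postpartum replicate 1 alone (adjusted p = 0.0523). Averaged over pregnancy states, its diet difference was −0.18 (SE 0.041, 95% interval −0.27 to −0.10, adjusted p = 0.0438; edgeR). That call was near the threshold: it held without Western diet postpartum replicate 2 or control diet postpartum replicate 2 and was lost without any other library, at adjusted p of 0.0598 to 0.123 and values of −0.19 to −0.16.

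Single contrasts of Cdh2 were all negative and did not pass. The diet difference was −0.22 in postpartum hearts (adjusted p = 0.0934; edgeR) and −0.15 in nonpregnant hearts (adjusted p = 0.445; edgeR). The postpartum difference was −0.19 on the Western diet (adjusted p = 0.147; edgeR) and −0.12 on the control diet (adjusted p = 0.398; edgeR), and −0.16 averaged over the diets (SE 0.041, adjusted p = 0.0654; edgeR). DESeq2 called that average (adjusted p = 0.0126). Postpartum libraries precede all nonpregnant ones in the numbering of the labels, so whatever goes with that order cannot be told apart from pregnancy. As a percentage of the summed heart muscle cell markers, Cdh2 stood at 0.285% to 0.289% in Western diet postpartum hearts and 0.288% to 0.369% in control diet postpartum hearts. The ratio was 0.327% to 0.352% in Western diet nonpregnant hearts and 0.311% to 0.376% in control diet nonpregnant hearts, so it overlapped between the diets in both states.

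**Figure D2:**
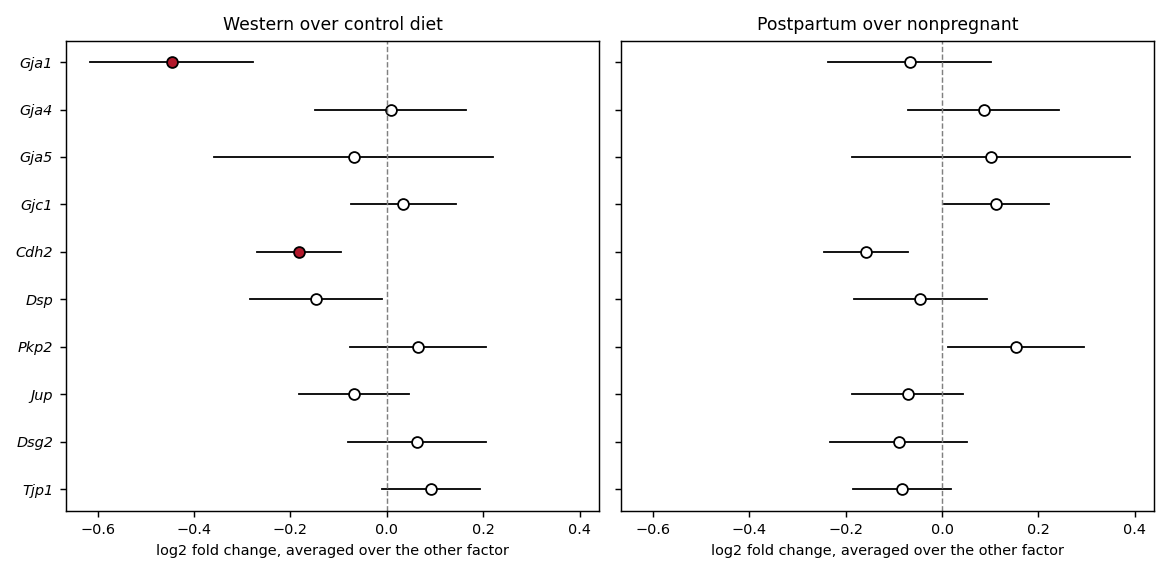
Log2 fold change (horizontal axis) of each gene with its 95% interval, for the diet average (Western over control) and the pregnancy average (postpartum over nonpregnant), from the edgeR fit of 12 libraries. Filled points passed at an adjusted p under 0.05; they are Gja1 at −0.45 and Cdh2 at −0.18 in the diet panel, and none in the pregnancy panel.

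Averaged over pregnancy states, the diet differences of the desmosomal genes did not share a sign, and none passed. In nonpregnant hearts alone Dsp (−0.27), Dsg2 (−0.20), Jup (−0.03) and Pkp2 (−0.006) were all negative, and none passed. Dsg2 encodes desmoglein 2, the desmosomal cadherin of heart muscle. It read 93.9, 101 and 124 CPM in Western diet postpartum hearts and 79.8, 95.4 and 79.9 CPM in control diet postpartum hearts. In nonpregnant hearts it read 96.2, 96.9 and 90.5 CPM on the Western diet and 107, 110 and 108 CPM on the control diet. The Western diet thus went with a higher mean after delivery and a lower mean without pregnancy, with an overlap in the first pair and none in the second.

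For Dsg2 the diet difference was 0.32 in postpartum hearts (SE 0.094, adjusted p = 0.120; edgeR) and −0.20 in nonpregnant hearts (adjusted p = 0.534; edgeR). The difference of these effects was 0.52 (SE 0.13, 95% interval 0.23 to 0.80, adjusted p = 0.357; edgeR). In this interaction test 0 genes of the 15476 passed, or 0.0%, while 1390 genes or 8.98%, 1 of them a disc gene, had an unadjusted p under 0.05. DESeq2 called 43 genes there, Dsg2 among them (adjusted p = 0.0424), and limma-voom called 0 (Dsg2 adjusted p = 0.385). With a library left out the value ranged from 0.39 to 0.60. On the control diet, postpartum hearts differed from nonpregnant ones by −0.35 (SE 0.094, adjusted p = 0.165; edgeR), and on the Western diet by 0.17 (adjusted p = 0.438; edgeR).

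Dsp encodes desmoplakin, which links desmosomes to desmin, and had the highest counts of the list, 24516 to 43142 per library. It read 1198, 1073 and 1343 CPM in Western diet postpartum hearts and 1283, 1263 and 1135 CPM in control diet postpartum hearts. Nonpregnant hearts read 1182, 1082 and 1167 CPM on the Western diet and 1541, 1281 and 1307 CPM on the control diet. Postpartum groups overlapped, and nonpregnant groups did not. The nonpregnant diet difference was −0.27 (SE 0.091, adjusted p = 0.362; edgeR) and the diet average −0.15 (SE 0.064, adjusted p = 0.318; edgeR).

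Pkp2, the plakophilin gene most often mutated in human arrhythmogenic cardiomyopathy, averaged 171 ± 20.1 CPM in Western diet postpartum hearts and 155 ± 10.4 CPM in control diet postpartum hearts. It averaged 146 ± 5.46 CPM in Western diet nonpregnant hearts and 147 ± 16.9 CPM in control diet nonpregnant hearts (SD, n = 3 each). Its postpartum average was 0.15 (95% interval 0.01 to 0.29, adjusted p = 0.245; edgeR), and it was 0.22 on the Western diet alone (adjusted p = 0.286; edgeR). Jup, the gene of plakoglobin, a protein of both desmosomes and adherens junctions, averaged 219 ± 15.9 CPM and 235 ± 10.0 CPM in Western and control diet postpartum hearts. In nonpregnant hearts it averaged 236 ± 14.6 CPM on the Western diet and 241 ± 20.5 CPM on the control diet (SD, n = 3 each). Its diet average was −0.07, with a 95% interval of −0.18 to 0.05.

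Tjp1 encodes the scaffold ZO-1, which binds the tail of Cx43. It averaged 97.4 ± 4.90 CPM in Western diet postpartum hearts and 88.0 ± 3.14 CPM in control diet postpartum hearts, and these libraries did not overlap. In nonpregnant hearts it averaged 99.2 ± 7.84 CPM on the Western diet and 96.8 ± 4.41 CPM on the control diet (SD, n = 3 each). The postpartum diet difference of 0.15 did not pass (SE 0.067, adjusted p = 0.331; edgeR), and the diet average was 0.09 (95% interval −0.01 to 0.19).

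Counted over the list, 0 of the 10 genes passed between postpartum and nonpregnant hearts on the Western diet (0.588% of all genes passed; edgeR) or on the control diet (0.239%; edgeR), and 0 passed for the average over diets (1.78%; edgeR). At an unadjusted p under 0.05 these counts were 3 (14.7% of all genes), 2 (12.5%) and 3 (17.6%). DESeq2 called 0, 0 and 1, and limma-voom called 0 in each. Between the diets, 0 of 10 passed in postpartum hearts (0.879% of all genes; edgeR) and 0 of 10 in nonpregnant hearts (0.0582%; edgeR). There the unadjusted counts were 4 (14.6% of all genes) and 3 (9.58%). DESeq2 called 3 and 1, and limma-voom called 0 in each. DESeq2's 3 in postpartum hearts were Gja1, Cdh2 and Dsg2, and its 1 in nonpregnant hearts was Gja1. These comparisons share libraries and are not independent.

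Groups of 3 that did not overlap were common among all genes. In nonpregnant hearts Gja1, Cdh2, Dsp and Dsg2 were lower on the Western diet without overlap, 4 of 10 genes, against 7.84% of all genes lower and 14.8% in either direction. Between postpartum and nonpregnant Western diet hearts Cdh2 was lower and Gjc1 higher without overlap, 2 of 10 against 19.6% of all genes. In postpartum hearts Gja1 and Cdh2 were lower and Gjc1 and Tjp1 higher on the Western diet without overlap, 4 of 10 against 19.1% of all genes. Between postpartum and nonpregnant control diet hearts Cdh2, Dsg2 and Tjp1 were lower without overlap, 3 of 10, against 8.96% of all genes lower.

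**Figure D3:**
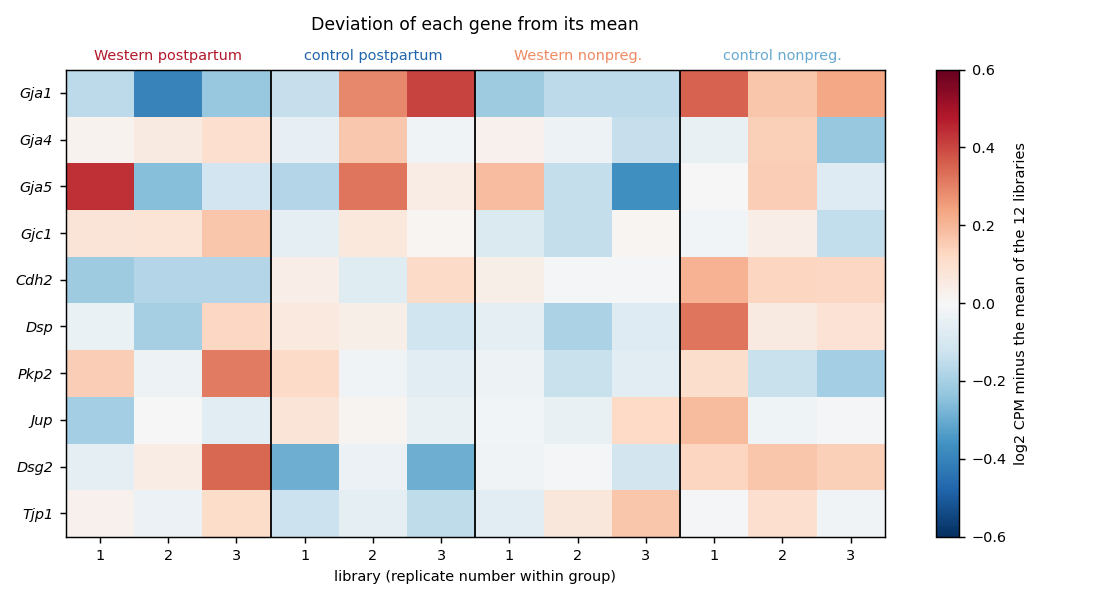
Colour shows log2 CPM of each gene (rows) in each library (columns, by group) minus the mean of the gene's 12 libraries. The Gja1 row is below its mean in the 6 Western diet libraries and in control diet postpartum replicate 1, and the Dsg2 row is highest in Western diet postpartum replicate 3.

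The order of the genes was taken from their levels in TPM, as means ± SD over the 12 libraries. Dsp led at 283.07 ± 35.1 TPM, followed by Gja1 at 237 ± 52.8 TPM. Jup stood at 79.7, Pkp2 at 63.4 and Cdh2 at 61.6 TPM, then Tjp1 at 26.8 and Dsg2 at 26.1 TPM. The minor connexin genes came last, with Gja4 at 12.8, Gjc1 at 9.14 and Gja5 at 2.43 TPM. Dsp exceeded Gja1 in 11 of 12 libraries, Jup exceeded Pkp2 in 10, Pkp2 exceeded Cdh2 in 5 and Tjp1 exceeded Dsg2 in 7, and the ranges of these 4 pairs overlapped. Every other neighbouring pair kept its order in all 12 libraries without overlap of ranges. The lens connexin gene Gja3, which is no member, averaged 14.3 TPM, in the range of Gja4.

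**Figure D4:**
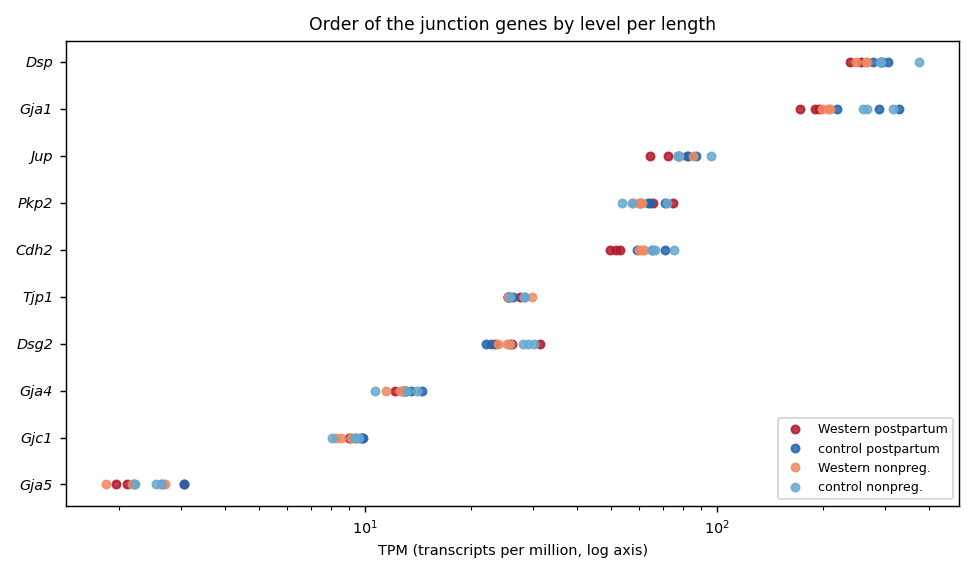
TPM on a log axis of the 10 genes in each of the 12 libraries, ordered by their mean. Dsp and Gja1 stand above the rest and Gja5, at a mean of 2.43 TPM, stands last.

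Around these members, 80 other genes of the disc and of connexin control were listed, of which 57 passed the filter. Of these, 5 passed in at least 1 of the 8 comparisons, against 673 of all 15476 genes, or 4.35%. No gene passed among 5 tested of 19 other connexin and pannexin genes, among 8 genes of connexin trafficking and turnover, or among 8 transcription factor genes known to act on connexin genes. Of 5 tested of 14 other desmosomal and linked genes, 1 passed, Des. Of 13 adherens and area composita genes 1 passed, Afdn, and of 18 disc scaffold, channel and accessory genes 3 passed, Popdc3, Cdh13 and Ank2.

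Des, the gene of desmin, the filament that desmosomes anchor, was higher in Western diet postpartum hearts. It read 2500, 2299 and 2618 CPM there, against 1823, 1914 and 1915 CPM in Western diet nonpregnant hearts, and rose by 0.39 on the log2 scale (adjusted p = 0.0278; edgeR). Control diet hearts read 1945, 2129 and 2104 CPM postpartum and 1902, 2082 and 2134 CPM nonpregnant. Their log2 difference of 0.01 did not pass (adjusted p = 0.956; edgeR). Des passed also for Western diet postpartum against control diet nonpregnant hearts (0.28, adjusted p = 0.0461; edgeR) and for the postpartum average (0.20, adjusted p = 0.0486; edgeR). With 1 library left out these 3 calls held in 7, 4 and 3 of 12 fits, and adjusted p reached 0.122, 0.165 and 0.123. All 3 were lost without Western diet postpartum replicate 1 or 3, and without Western diet nonpregnant replicate 2 or 3.

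Popdc3, of the Popeye family of cAMP-binding membrane proteins, followed the same groups. It read 36.5, 27.056 and 35.5 CPM in Western diet postpartum hearts and 20.2, 21.0 and 22.002 CPM in Western diet nonpregnant hearts, and rose by 0.65 (adjusted p = 0.0249; edgeR). Control diet hearts read 23.4, 24.0 and 27.048 CPM postpartum and 22.961, 23.6 and 22.5 CPM nonpregnant. Their log2 difference of 0.11 did not pass (adjusted p = 0.713; edgeR). In Western diet postpartum hearts Popdc3 rose as well against control diet nonpregnant hearts (0.52, adjusted p = 0.0184; edgeR). It also rose in the postpartum average (0.38, adjusted p = 0.0213; edgeR). With 1 library left out these calls held in 7, 8 and 7 of 12 fits, and adjusted p reached 0.0974, 0.0864 and 0.0602. All 3 were lost without Western diet postpartum replicate 1. With only the groups compared in the fit, the first 2 calls did not pass (adjusted p = 0.0513 and 0.0614; edgeR).

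Cdh13, the gene of T-cadherin, a cadherin held by a lipid anchor, and Ank2, the gene of ankyrin-B, which places transporters and channels in the membrane, were lower. Cdh13 read 132, 139 and 124 CPM in Western diet postpartum hearts against 184, 165 and 163 CPM in control diet nonpregnant hearts, and fell by 0.37 on the log2 scale (adjusted p = 0.0114; edgeR). Its postpartum average was −0.20 (adjusted p = 0.0445; edgeR). Ank2 read 106, 128 and 114 CPM in Western diet postpartum hearts against 144, 151 and 143 CPM in control diet nonpregnant hearts, and fell by 0.33 (adjusted p = 0.0266; edgeR). Its diet average was −0.22 (adjusted p = 0.0432; edgeR). With 1 library left out the Cdh13 calls held in 10 and 2 of 12 fits and the Ank2 calls in 8 and 1, with adjusted p of up to 0.0566, 0.109, 0.120 and 0.118. All 4 were lost without Western diet postpartum replicate 1 or 3. With only the groups compared in the fit, the difference from control diet nonpregnant hearts did not pass for Cdh13 (adjusted p = 0.065; edgeR), Ank2 (0.0943) or Des (0.141).

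Afdn, the gene of afadin, which joins nectins to actin, fell by 0.22 in the postpartum average (adjusted p = 0.04996; edgeR), a call at the threshold that held only without Western diet postpartum replicate 2 among the 12 fits with a library left out. Of the genes that did not pass, Cav3, the muscle caveolin gene, came nearest among the turnover genes, at 0.23 for the postpartum average (adjusted p = 0.0706; edgeR). Among transcription factor genes Gata4 stood at −0.12 for the diet average (adjusted p = 0.18; edgeR) and Hopx at −0.22 for the postpartum average (adjusted p = 0.129; edgeR). Gja3 stood at −0.16 for the diet average (adjusted p = 0.461; edgeR), beside the −0.45 of Gja1.

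**Figure D5:**
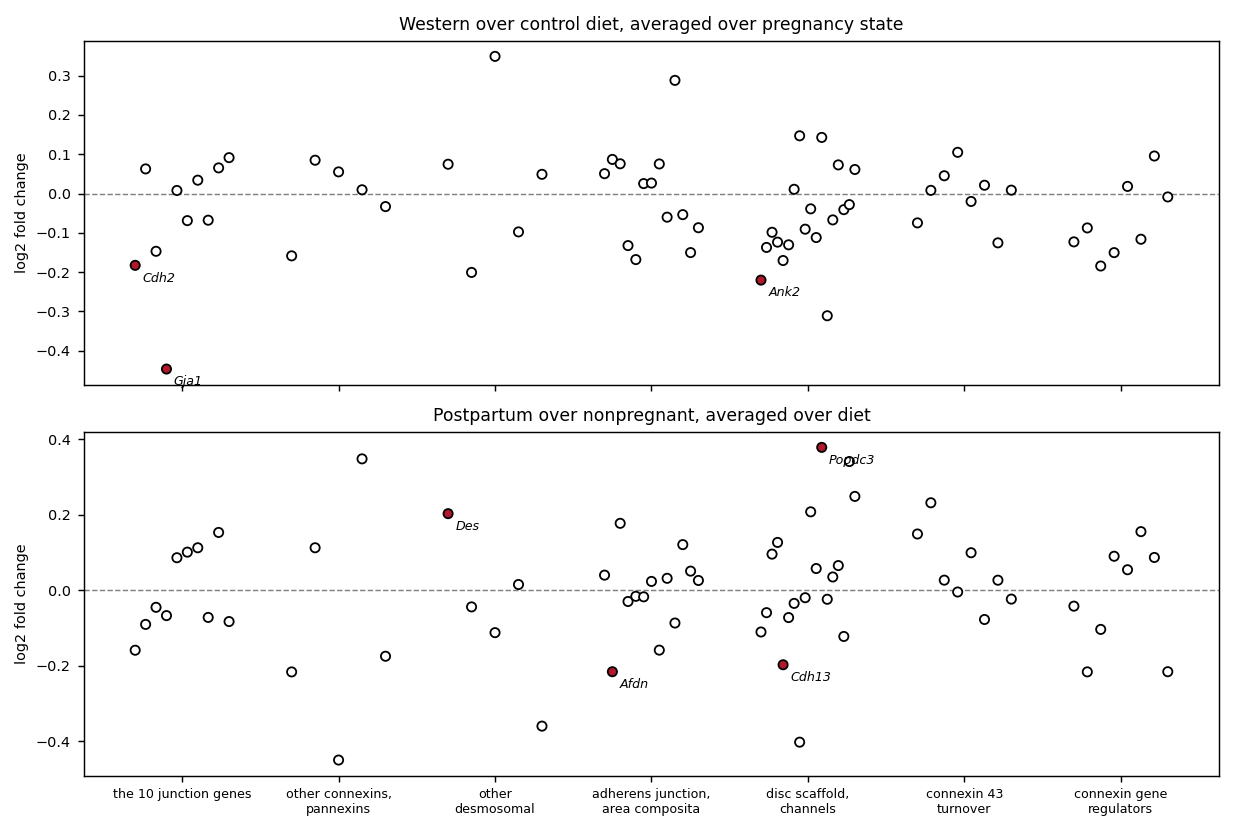
Log2 fold change (vertical axis) of the 10 genes and of the related genes that passed the filter, grouped by list (horizontal axis). Panels show the diet average (Western over control) and the pregnancy average (postpartum over nonpregnant). Filled points passed at an adjusted p under 0.05. They are Gja1, Cdh2 and Ank2 in the diet panel and Des, Popdc3, Cdh13 and Afdn in the pregnancy panel.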

How the data were processed

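Gene expression was measured by RNA-seq in 12 heart libraries, 3 in each of 4 groups set by the diet and time point labels. Per the labels' protocols, RNA came from a Qiagen RNeasy extraction and went into NEBNext Ultra libraries. The submitters' processing notes name STAR 2.5.2b, Subread 1.5.2, featureCounts and FastQC with GRCm38 (mm10). Each deposited file holds the authors' raw counts by gene, with exon coordinates and lengths, and calls the diets Ctrl and HF-HC, per the file headers. Strand setting, annotation release and read length are unknown from the sources used here. Reads of genes lying on opposite strands of one locus may thus be mixed or left uncounted.

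Gene identifiers were matched to symbols for 48970 of 49315 genes. From the counts, genes were filtered with edgeR 4.0.16 (filterByExpr, minimum count 10, total 15; 15476 kept), scaled by TMM and fitted with a mean per group over all 12 libraries (quasi-likelihood, common biological coefficient of variation 9.62%). There were 8 contrasts, tested two-sided in R 4.3.3 and adjusted by Benjamini-Hochberg over all genes within each contrast, at 0.05. The 95% intervals use the t quantile of the fit. CPM uses the TMM-scaled library sizes and TPM the files' gene lengths. A count of 0 allows up to 3 counts, 0.0974 to 0.136 CPM, for counting error only, since reads carry no molecular identifiers. Replicates differed beyond sampling noise in every group. DESeq2 1.42.0, limma-voom (limma 3.58.1), other scaling, no filter, fewer groups and left-out libraries were tried, and the procedure was tested on simulated data. The members and lists were chosen with earlier results of these data known. Named were all 10 members, related genes that passed, and otherwise those of smallest p in their list.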

Additional observations from a re-analysis of the deposited data

Results flagged for a closer look

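For 2 related genes every Western diet library lay on one side of the control libraries in postpartum hearts and on the other side in nonpregnant hearts, as was so for 114 of all 15476 genes, or 0.737%. Nedd4, a ubiquitin ligase that acts on Cx43, read 488, 481 and 539 CPM in Western and 455, 472 and 471 CPM in control diet postpartum hearts. In nonpregnant hearts it read 486, 506 and 503 CPM on the Western diet and 527, 525 and 515 CPM on the control diet. The difference between its diet effects was 0.18 on the log2 scale (adjusted p = 0.53; edgeR) and did not pass. Popdc3, whose values are given above, had a difference of 0.54 (adjusted p = 0.36; edgeR), which did not pass either; its postpartum groups were apart only by the lowest Western library, at 27.056 CPM, and the highest control library, at 27.048 CPM.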

How the results depend on the processing

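No paired analysis was possible because the labels give no replicate numbers that tie libraries across groups. Comparisons are given here in the order postpartum against nonpregnant on the control and on the Western diet, Western against control diet postpartum and nonpregnant, Western diet postpartum against control diet nonpregnant, interaction, postpartum average and diet average. All genes past the threshold numbered 37, 91, 136, 9, 406, 0, 276 and 214. Without a filter they numbered 744, 933, 1048, 454, 1315, 506, 1262 and 1029, in a fit whose prior degrees of freedom were infinite, against 5.74 with the filter. DESeq2 called 184, 361, 456, 95, 779, 43, 615 and 484. With DESeq2's size factors the Afdn call was lost (adjusted p = 0.0529). With only the groups compared in the fit, the first 5 were 6, 47, 71, 0 and 136. With replicate 3 of the control diet postpartum group and replicate 1 of the control diet nonpregnant group both removed, 74 genes passed in the first, 15 in the fourth and 1 in the interaction. With 1 library left out the ranges were 0 to 205, 0 to 472, 30 to 490, 0 to 18, 87 to 764, 0 to 53, 52 to 567 and 83 to 378.

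Of the 10 members, the fit without a filter called 1 (Dsg2) in the first comparison, 2 each for the diets in postpartum (Gja1, Dsg2) and nonpregnant hearts (Gja1, Dsp) and 1 for the interaction (Dsg2). DESeq2 called 3 and 1 for the diets in postpartum and nonpregnant hearts, 1 for the interaction and 1 for the postpartum average. Without the 2 libraries named above, 1 member passed for the diet average, since Cdh2, at −0.14 with an adjusted p of 0.104, did not. With 1 library left out 0 to 1 members passed for the diets postpartum, 0 to 2 for Western diet postpartum against control diet nonpregnant hearts and 1 to 2 for the diet average. Not every single contrast of each gene was followed through these fits. Among the differences that were, signs turned only for small ones, the largest being 0.10 for the Gja5 postpartum average. Without those 2 libraries the Gja1 interaction was 0.017, the Dsp postpartum average 0.026 and the Gja4 diet average −0.0071. With 1 library left out ranges crossed 0 for Gja1 postpartum on the control diet (−0.16 to 0.10), its interaction (−0.18 to 0.075), the postpartum averages of Gja1 (−0.12 to 0.0069), Dsp (−0.085 to 0.0021) and Gja5 (−0.020 to 0.18), and the diet average of Gja4 (−0.034 to 0.056). Where a count or sign moved, the cause was not tested. Gja4 and Gja5 held 120 to 297 counts per library. The SE of the diet average was 0.073 for Gja4 and 0.13 for Gja5, beside 0.079 for Gja1. With 3 libraries a group, small changes in these genes could not be detected.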
